A study of Homo sapiens with 8 samples.

Results

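RNAs of the core splicing factors were measured in human embryonic kidney cells that expressed TIA1 or TIAR and in the same cells expressing HuR or the GFP tag. The splicing factors were taken as all probes whose gene name on the array belongs to the SR proteins, the hnRNP proteins, the snRNP proteins, the SF3A and SF3B subunits or the U2AF subunits. This gave 60 gene names of 36337 on the array, read by 106 of its 50599 probes, namely 47 hnRNP, 22 snRNP, 21 SR, 12 SF3A or SF3B and 4 U2AF probes. Pseudogenes and an antisense RNA that carry such a name (HNRNPKP3, SNRPD2P2 and HNRNPU-AS1) were kept. Probes of the same gene were kept apart, since 29 of the genes had several probes and 31 had a single probe. The cells were FT293 cells, a HEK293 derivative with the Flp-In T-REx system, in which a transgene sits at a fixed genomic site and is switched on by tetracycline. The 4 lines carried GFP, GFP-HuR, GFP-TIA1 or GFP-TIAR, all were treated with tetracycline for 3 days, and the labels name no deletion in any of them. Each line was hybridized to 2 arrays from independent biological replicates. The labels do not say how many clones stand behind a line, so each line is a single stable line as far as they tell. In a bulk culture, fewer cells with an RNA and less of it per cell cannot be told apart.

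Pre-mRNA splicing is carried out by the spliceosome, in which U1 snRNP recognises the splice donor site, the U2AF heterodimer the tract and base at the acceptor site, and U2 snRNP, with SF3A and SF3B, the branch site. SR proteins mostly favour the use of exons that they bind, and hnRNP proteins often oppose it. TIA1 and TIAR bind uridine-rich stretches beside weak donor sites and help to recruit U1 snRNP there, with contact to its subunit SNRPC, while HuR is best known for binding and stabilising mRNAs with AU-rich elements. Many SR and hnRNP genes also hold unproductive exons, and transcripts that include such an exon are degraded or code for no full protein, so a gene can be measured on transcripts of different fate.

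The 60-base probes that carry the largest differences, a probe of a non-coding transcript and a pair of HNRNPA3 probes of nearly the same sequence are shown here, as printed on the array. The probes of HNRPDL (A_23_P213153, chr4:83348420-83348607, minus strand, hg19) and SNRPA1 (A_32_P28685, chr15:101827183-101827887, minus strand) cross an exon junction, as their genomic span is longer than the probe. The SRSF6 probe A_33_P3238455 (chr20:42087885-42087944, plus strand) is assigned by the array design to a non-coding SRSF6 transcript. A pair of HNRNPA3 probes is assigned to the same place (chr2:178080329-178080388, plus strand) and differs at the capital bases, A14G, G42T and C59G from A_24_P269895 to A_33_P3422170, counted from the first base of the probe. Both cannot match that place in full, so which RNA each reads is uncertain.
HNRPDL A_23_P213153: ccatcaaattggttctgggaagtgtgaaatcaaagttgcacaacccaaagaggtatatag
SNRPA1 A_32_P28685: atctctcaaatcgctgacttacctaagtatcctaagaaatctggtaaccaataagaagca
SRSF6 A_33_P3238455: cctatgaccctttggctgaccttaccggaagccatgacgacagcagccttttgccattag
HNRNPA3 A_24_P269895: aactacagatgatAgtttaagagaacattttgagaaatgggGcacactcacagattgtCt
HNRNPA3 A_33_P3422170: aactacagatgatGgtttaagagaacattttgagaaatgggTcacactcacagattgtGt

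Levels are given as the log2 of the scanner's processed signal minus the 75th percentile of the array, so that 0 is that percentile, and differences between lines are log2 fold changes of the same probe. Levels of different probes were not compared. A signal well above background was found on all 8 arrays for 97 of the 106 probes, and on both arrays of 1 line or more for 100. The first GFP array stood apart. It had 86.0% of all probes well above background against 53.2% to 58.5% on the other arrays, and its mean local background was 90.0 against 37.4 to 43.5. The GFP arrays differed from each other by over 2-fold for 15.8% of all probes and for 4 of 98 splicing factor probes, whereas the arrays of the other lines did so for 0.455% to 1.45% of all probes and for at most 1 splicing factor probe. Of the 9 splicing factor probes that were not well above background everywhere, 8 were so on the first GFP array, and 3 of them there alone. The TIAL1 probe A_23_P161488 (the gene of TIAR) read 4.87 and 4.98 in the TIAR line and 1.63 to 2.52 on the other arrays, while the other TIAL1 probe was not higher there (-0.39 against HuR). The probes of TIA1 and of ELAVL1 (the gene of HuR) were not higher in their own lines (TIA1 A_24_P405430 -0.94 and -1.0 in the TIA1 line against -0.04 and 0.06 in the HuR line, ELAVL1 0.33 and 0.42 in the HuR line against 1.09 and 0.91 in the GFP line). Against HuR, TIA1 A_24_P405430 was also lower with TIAR (-1.58), and TIAL1 A_23_P161488 was lower with TIA1 (-0.81). The paper reports that ectopic TIA1 or TIAR depleted the endogenous TIA proteins and that ectopic HuR lowered endogenous HuR. The part of this in the readings was not tested. Whether the probes lie in the part of the mRNA that the transgene carries is not given in the sources used here. Those of TIA1 and ELAVL1 thus check no label, while the high TIAL1 readings lay on the TIAR arrays. Of 9 genes marking HEK293 cells, 8 had a probe well above background on all arrays. Of 9 marking blood, endothelium, fibroblasts or liver, 3 did (PTPRC, CDH5 and COL1A1) and COL3A1 was not well above background on any array. The summed level of these 9 genes, on the linear scale with the 75th percentile at 1, was 5.33 on the first and 0.30 on the second GFP array, 0.42 to 0.46 in the HuR line, 0.70 to 0.76 in the TIA1 line and 0.76 to 0.83 in the TIAR line, and its part in the differences below was not tested.

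The first question was which splicing factor RNAs differ between cells with a TIA protein and cells with HuR. A probe was called where limma, run over the whole array, gave an adjusted p under 0.05 and the lines differed by 2-fold or more. In the TIA1 line, 0 of 99 tested probes were called higher and 2 lower than in the HuR line, where 8.5% and 4.9% of all tested probes were called (13.4% in either direction). In the TIAR line, 0 of 100 were higher and 3 lower, against 7.06% and 3.01% of all probes (10.1% in either direction). The called RNAs were those of HNRPDL and SNRPA1. With no limit on the fold change, 12 probes were higher and 20 lower in the TIA1 line (32.3%, against 41.5% of all probes, 24.2% higher and 17.3% lower), and 5 were higher and 22 lower in the TIAR line (27.0%, against 30.6%, of which 18.1% higher and 12.6% lower). The 5 include an SNRPD3 probe that passed the filter through its TIAR arrays alone. The splicing factors thus held fewer probes past 2-fold than the array as a whole, and more of those past the adjusted p were lower (20 of 32 and 22 of 27) than higher. Their median log2 fold change was -0.16 for TIA1 and -0.22 for TIAR, against 0.08 and 0.05 over all probes, and 64 of 99 and 73 of 100 probes were below 0. Both TIA lines were set against the same HuR arrays. With the authors' values the TIAR gap nearly closed (-0.09 against -0.05 over all probes, 62% of the splicing factor probes below 0), and with array median scaling the splicing factor medians were -0.40 and -0.49 against -0.16 and -0.21. Leaving out the first or the second HuR array kept the splicing factor medians (-0.16 and -0.17 for TIA1, -0.22 and -0.21 for TIAR) but left 2 or 3 probes past the adjusted p for TIA1, and for TIAR 0, those past 2-fold included, as the share of all probes past it fell to 11.4% and 10.3%, and to 2.66% and 2.17%.

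**Figure D1:**
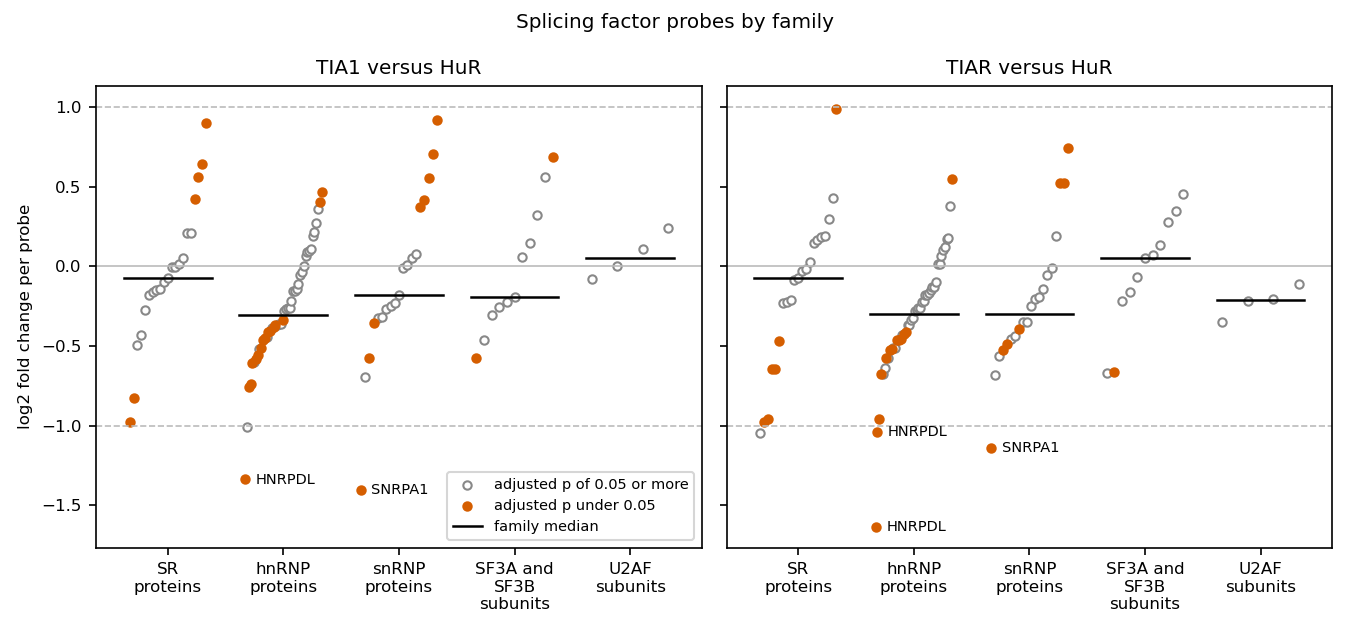
Log2 fold change of each tested splicing factor probe (y axis) by family (x axis), for TIA1 (left) and TIAR (right) against HuR. Each point is a probe, filled where the adjusted p was under 0.05, bars are family medians and dashed lines mark a 2-fold change; the named probes of HNRPDL and SNRPA1 are the ones past both limits, all of them lower.

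Among the hnRNP proteins, most probes lay below 0. The family median was -0.31 for TIA1 (33 of 44 probes below 0) and -0.30 for TIAR (35 of 44), and it stayed below 0 with normexp, array median, quantile and the authors' normalization. In the TIA1 line 2 hnRNP probes were higher and 14 lower by the adjusted p, and in the TIAR line 1 was higher and 12 lower. HNRPDL (RefSeq name HNRNPDL), a relative of the AU-rich element binding protein HNRNPD, had the largest difference. Its junction probe A_23_P213153 read 3.28 and 3.51 in the GFP line, 3.47 and 3.88 in the HuR line, 2.41 and 2.27 in the TIA1 line, and 2.22 and 1.87 in the TIAR line. All 4 TIA1 and TIAR arrays were thus below all 4 GFP and HuR arrays. Against HuR the level was 2.53-fold lower with TIA1 (log2 fold change -1.34, SE 0.17, adjusted p = 0.0081) and 3.1-fold lower with TIAR (-1.63, SE 0.21, adjusted p = 0.012). Against GFP the log2 fold changes were -1.05 and -1.35 and did not pass the test (adjusted p = 0.12 and 0.19). The second HNRPDL probe, A_24_P9090 (chr4:83344403-83344462, at base 3394 of the transcript against base 1419 for the first), read 1.26 and 1.48 with GFP, 1.99 and 2.10 with HuR, 1.35 and 1.22 with TIA1, and 1.2 and 0.81 with TIAR. At this probe the HuR line lay above all others, the TIA1 line overlapped the GFP line and the TIAR line lay below it. Its log2 fold changes against HuR were -0.76 (adjusted p = 0.0099) and -1.04 (adjusted p = 0.018).

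HNRNPC, which coats nascent transcripts at uridine tracts, was probed at 3 places. The probe farthest along the transcript, A_33_P3294017, read 2.62 and 2.88 with GFP, 3.88 and 3.92 with HuR, 3.17 and 3.15 with TIA1, and 2.89 and 2.99 with TIAR. The HuR arrays were the highest and the TIA arrays all lay above the GFP arrays. Its log2 fold changes against HuR were -0.74 (SE 0.09, adjusted p = 0.0073) for TIA1 and -0.96 (SE 0.10, adjusted p = 0.0083) for TIAR, while that of HuR against GFP was 1.15 (adjusted p = 0.185). The other HNRNPC probes gave 0.09 and -0.34 for TIA1, and 0.10 and 0.02 for TIAR. The one at -0.34 (A_24_P178423, adjusted p = 0.048) is placed on chromosome 2 by the array design, away from the chromosome 14 of the other probes, so which gene it reads is uncertain.

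HNRNPD (AUF1), which like TIAR and HuR binds AU-rich elements, differed between its probes. A_23_P58353 read 5.40 and 5.653 with GFP, 5.44 and 5.46 with HuR, 4.96 and 5.04 with TIA1, and 4.99 and 5.08 with TIAR. Each TIA array was below each control array, and the log2 fold changes against HuR were -0.45 (adjusted p = 0.025) and -0.41 (adjusted p = 0.041). The other probe, A_24_P123245, gave 0.41 (adjusted p = 0.027) for TIA1 and -0.15 for TIAR. HNRNPK, a poly(C)-binding protein, likewise gave -0.56 (adjusted p = 0.025), -0.04 and 0.07 at its 3 probes for TIA1, and -0.64, -0.57 and 0.12 for TIAR, of which none passed. HNRNPA1, the classical silencer of exon inclusion, had log2 fold changes between -0.36 and -0.22 for TIA1 with none past the test. For TIAR they lay between -0.52 and -0.18 with 1 of 3 probes past it (A_33_P3384260, adjusted p = 0.036). The array design lists no RefSeq transcript of HNRNPA1 for that probe, unlike for the other 2, so which RNA it reads is uncertain. Of the 5 probes named for HNRNPA1L2, 4 also list HNRNPA1 transcripts in the array design, so the 2 genes cannot be told apart there. The 5 gave between -0.52 and -0.16 for TIA1, with 1 past the test, and between -0.37 and -0.13 for TIAR. The probe past the test (A_32_P113436, -0.38, adjusted p = 0.045) is the one that lists HNRNPA1L2 and no HNRNPA1 transcript. By the adjusted p, HNRNPAB (-0.46 and -0.46) and HNRNPH1 (-0.41 and -0.45) were also lower with both TIA proteins. So were HNRNPU at 1 of 2 probes (A_23_P160862, -0.61 and -0.43) and HNRNPA3 at 1 of 6 (A_23_P86660, -0.58 and -0.53). The 6 HNRNPA3 probes ran from -0.58 to 0.19 with TIA1 and from -0.68 to -0.10 with TIAR. The other HNRNPU probe, A_32_P51894, gave 0.36 with TIA1 and -0.26 with TIAR. HNRNPUL2 was the hnRNP RNA that was higher with TIAR (0.55, adjusted p = 0.040).

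**Figure D2:**
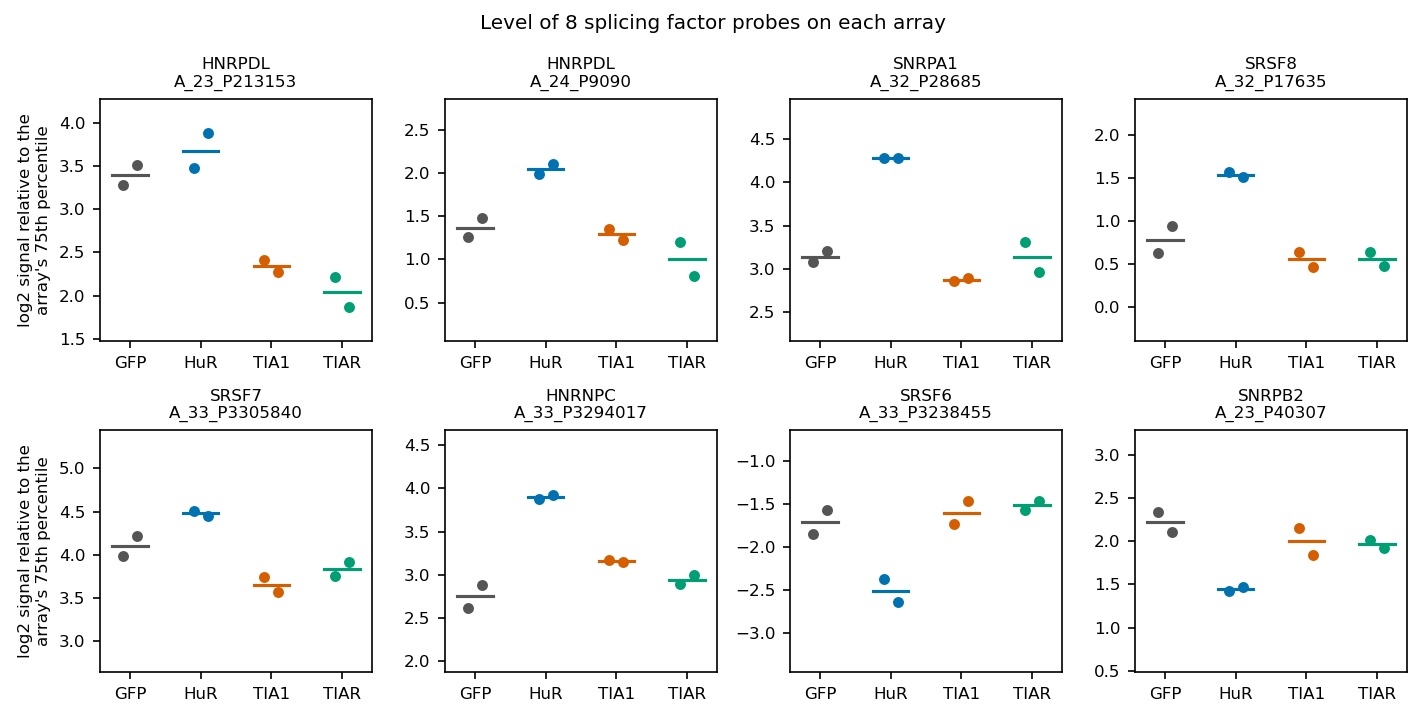
Level of 8 probes on each array (y axis, log2 signal relative to the array's 75th percentile, each panel spanning the same range) by line (x axis). Points are arrays and bars are means of 2; the HNRPDL junction probe is low in both TIA lines, while SNRPA1, SRSF8 and HNRNPC are high, and SRSF6 A_33_P3238455 and SNRPB2 low, in the HuR line.

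Among the snRNP proteins, the median was -0.18 for TIA1 (11 of 19 probes below 0) and -0.30 for TIAR (16 of 20), below 0 with each of the 4 other normalizations too. By the adjusted p, 5 were higher and 3 lower with TIA1, and 3 were higher and 4 lower with TIAR. The 3 higher with TIAR include an SNRPD3 probe that was not well above background in the HuR line. The RNAs of the U2 snRNP pair differed in opposite directions. SNRPA1 (the A′ protein) read 3.08 and 3.20 with GFP, 4.28 and 4.28 with HuR, 2.86 and 2.89 with TIA1, and 3.31 and 2.96 with TIAR. The HuR arrays stood over 0.9 above every other array, and the TIA1 arrays were the lowest. SNRPA1 was 2.65-fold lower with TIA1 (log2 fold change -1.40, SE 0.09, adjusted p = 0.0026) and 2.21-fold lower with TIAR (-1.14, SE 0.15, adjusted p = 0.013) than with HuR. Against GFP it differed by -0.27 with TIA1, -0.01 with TIAR and 1.13 with HuR (adjusted p = 0.46, 0.99 and 0.18). SNRPB2 (the B″ protein), which binds U2 snRNA together with SNRPA1, read 2.34 and 2.11 with GFP, 1.42 and 1.47 with HuR, 2.15 and 1.85 with TIA1, and 2.02 and 1.93 with TIAR at A_23_P40307. Here the HuR arrays were the lowest. The log2 fold changes against HuR were 0.55 (adjusted p = 0.038) and 0.53 (adjusted p = 0.025), and the second SNRPB2 probe, A_24_P724040, gave 0.41 (adjusted p = 0.030) and 0.52 (adjusted p = 0.032). Against GFP, HuR gave -0.78 and -0.75 at these probes (neither passed). With array median scaling none of the 4 SNRPB2 differences from HuR passed (0.17 to 0.31).

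Of the U1 snRNP proteins, SNRPA (its A protein) was higher with TIA1 (0.37, SE 0.10, adjusted p = 0.040) and differed by -0.05 with TIAR. SNRPC, the contact of TIA1 in U1 snRNP, read 6.0 and 6.44 with GFP, 6.25 and 6.12 with HuR, 6.28 and 6.08 with TIA1, and 5.29 and 5.96 with TIAR at its tested probe. The lines overlapped apart from TIAR, whose arrays were the lowest and lay farther apart than those of any other line. The log2 fold changes against HuR were -0.01 (adjusted p = 0.96) and -0.56 (adjusted p = 0.17). The other SNRPC probe was well above background on 2 of 8 arrays and was not tested. In the Sm ring, which all U snRNPs of the spliceosome but U6 share, SNRPB (SmB) was higher with TIA1 (0.70, SE 0.15, adjusted p = 0.025) and differed by 0.19 with TIAR. SNRPD1 (SmD1) was lower at both probes with TIAR (-0.39 and -0.52, adjusted p = 0.044 and 0.029) and at 1 of 2 with TIA1 (-0.35, adjusted p = 0.040), and SNRPF (SmF) was lower with TIAR (-0.49, adjusted p = 0.040). The 3 probes of SNRPG and that of SNRPD2 gave between -0.35 and 0.08 in both comparisons, none past the test. A second SNRPD3 probe (A_33_P3314511) was not well above background in the HuR line and was tested through its TIAR arrays alone. Its level was at least 1.28-fold higher with TIAR, and its adjusted p is not used, since the filter was passed only where the probe was high. SNRPN was not well above background on any array.

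SNRPE (SmE) had the widest range between its own probes for TIA1 against HuR. The probe far from the others, A_33_P3244424 (base 1484 of the transcript, the others at bases 156 to 341), read -2.77 and -2.58 with GFP, -2.98 and -2.84 with HuR, -1.99 and -2.0 with TIA1, and -2.80 and -3.05 with TIAR. The TIA1 arrays were the highest, the GFP arrays came next, and the HuR and TIAR lines overlapped. It was higher with TIA1 than with HuR (0.92, SE 0.10, adjusted p = 0.0058), while the other 3 probes gave -0.23, -0.58 and -0.69, of which -0.58 passed the test (A_33_P3320152, adjusted p = 0.042). It was also the single splicing factor probe that differed between the TIA lines by the adjusted p (TIAR against TIA1 -0.93, SE 0.14, adjusted p = 0.047), a difference that the test did not pass with any of the 4 other normalizations (adjusted p between 0.052 and 0.11).

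Among the SR proteins, the medians were near 0 (-0.07 in both comparisons), with members on both sides. For TIAR the median was above 0 with normexp and with the authors' values. With array median scaling the medians were -0.32 for TIA1 and -0.34 for TIAR. In the TIA1 line 4 probes were higher and 2 lower by the adjusted p, and in the TIAR line 1 was higher and 5 lower. SRSF8, a retrogene relative of SRSF2, read 0.63 and 0.94 with GFP, 1.56 and 1.51 with HuR, 0.65 and 0.46 with TIA1, and 0.64 and 0.48 with TIAR. The HuR arrays were above all others, and the other 3 lines overlapped. Its log2 fold changes against HuR were -0.98 (SE 0.11, adjusted p = 0.0062) and -0.97 (SE 0.11, adjusted p = 0.0092). SRSF7 (9G8), which also serves in mRNA export, read 3.99 and 4.21 with GFP, 4.51 and 4.45 with HuR, 3.74 and 3.57 with TIA1, and 3.76 and 3.92 with TIAR at A_33_P3305840. All TIA arrays were below all control arrays, and the log2 fold changes against HuR were -0.83 (adjusted p = 0.0085) and -0.64 (adjusted p = 0.020). At its other probe, A_24_P222911, they were -0.43 and -1.05, and neither passed, with TIA1 arrays at 0.99 and 1.60 and TIAR arrays at 0.30 and 1.07.

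SRSF6 (SRp55) was higher with the TIA proteins than with HuR at the probe for its non-coding transcript, whose sequence is given above. This probe read -1.85 and -1.58 with GFP, -2.38 and -2.63 with HuR, -1.73 and -1.47 with TIA1, and -1.57 and -1.47 with TIAR. The HuR arrays were the lowest, the TIA1 line overlapped the GFP line, and the TIAR arrays lay just above it. The log2 fold changes against HuR were 0.90 (SE 0.15, adjusted p = 0.015) and 0.99 (SE 0.13, adjusted p = 0.013), and that of HuR against GFP was -0.79 (adjusted p = 0.23). The other SRSF6 probe gave 0.64 (adjusted p = 0.011) for TIA1 and 0.18 for TIAR. SRSF11 was higher with TIA1 at 2 of 3 probes (0.56 and 0.42, adjusted p = 0.020 and 0.026), and at all 3 the TIA arrays lay above the GFP and HuR arrays. SRSF1 (ASF/SF2), the prototype of the family, read -1.01 and -0.99 with GFP, -0.64 and -0.45 with HuR, -1.17 and -0.90 with TIA1, and -1.37 and -1.64 with TIAR. Its TIAR arrays were the lowest, with a log2 fold change against HuR of -0.96 (SE 0.14, adjusted p = 0.016), against -0.49 for TIA1 (adjusted p = 0.055). SRSF3 (SRp20), the smallest SR protein, was lower with TIAR at 1 of 2 probes (-0.64, adjusted p = 0.030), and SRSF2 (SC35) gave between -0.28 and -0.07 at its probes, none past the test.

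The SF3A and SF3B subunits, which hold U2 snRNP at the branch site, and the U2AF subunits held few differences. SF3A1 was higher with TIA1 (0.69, SE 0.09, adjusted p = 0.0082) and gave 0.28 with TIAR, with all TIA arrays (2.37 to 2.90) above the control arrays (1.54 to 2.32). SF3B5 was lower in both lines (-0.57 and -0.66, adjusted p = 0.013 and 0.015), with TIA arrays between 5.69 and 5.81 and control arrays between 5.97 and 6.41. SF3B14, the branch-site protein p14, gave the largest value of the group with TIAR, -0.67, which did not pass and rests on a single TIAR array, as its spot on the first TIAR array was marked as an outlier and left out of the fit. SF3B1, the subunit that contacts the branch site, gave 0.32 and -0.16, U2AF1 (U2AF35) gave 0.24 and 0.11 with TIA1 and -0.35 and -0.21 with TIAR, and U2AF2 (U2AF65) gave 0.00 and -0.11, none of them past the test.

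The other comparisons show how far these differences lie in the TIA lines or in the HuR line. Between TIAR and TIA1, 0 of 99 probes were called, against 2.35% of all probes (1.24% higher and 1.1% lower with TIAR), 1 passed the adjusted p alone, against 3.48% (1.74% higher and 1.74% lower), and 15 had an unadjusted p under 0.05 (15.2%, against 23.8% of all probes). Against GFP, limma called 0 splicing factor probes with TIA1, TIAR or HuR, as it did 0 (0%) of all probes in each of these comparisons, while 9, 5 and 17 splicing factor probes had an unadjusted p under 0.05 (9.18%, 5.05% and 17.2%, against 21.7%, 16.4% and 17.2% of all probes). These comparisons hold the first GFP array, and without it 2, 1 and 5 splicing factor probes were called, against 11.5%, 6.58% and 8.47% of all probes, and without the second GFP array 4, 4 and 5, against 23.5%, 21.2% and 24.3%. The median splicing factor log2 fold change against GFP was 0.07 with TIA1, -0.03 with TIAR and 0.21 with HuR, against 0.01, -0.02 and -0.04 over all probes. Without the first GFP array the splicing factor medians were -0.09, -0.21 and 0.04, and without the second 0.19, 0.06 and 0.36. The splicing factor median fell below that of all probes with quantile normalization for HuR (0.07 and 0.23) and TIA1 (-0.05 and 0.24), with the authors' values for HuR (0.02 and 0.16) and TIA1 (-0.12 and 0.17), and with normexp for TIA1 (-0.03 and -0.01).

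**Figure D3:**
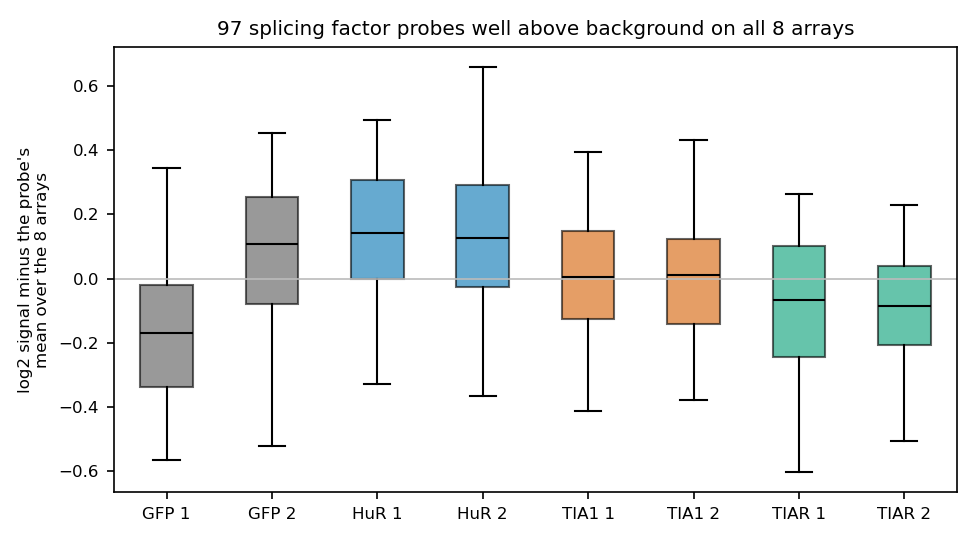
Deviation of each of 97 splicing factor probes from its mean over the 8 arrays (y axis, log2), by array (x axis). Boxes span the quartiles, bars are medians and whiskers run from the 5th to the 95th percentile; the medians were -0.17 and 0.11 on the GFP arrays, 0.14 and 0.13 on the HuR arrays, 0.00 and 0.01 on the TIA1 arrays, and -0.07 and -0.08 on the TIAR arrays.

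The arrays can also be ordered without a fit. Both HuR arrays were above the other 6 arrays at 27 of 100 splicing factor probes and below them at 4, against 11.6% and 15.5% of all probes. This count was chosen after values had been seen. The 27 held 15 hnRNP, 7 snRNP, 4 SR and 1 SF3B probe. Among them were SNRPA1, SRSF1, SRSF7, SRSF8, HNRNPK at A_24_P380919, HNRNPU at A_23_P160862 and the HNRNPC probe farthest along the transcript. The 4 were both probes of SNRPB2 and both of SRSF6. Without the second GFP array 40 were above and 7 below, against 16.2% and 20.2% of all probes. With array median scaling 42 were above and 0 below, against 22.7% and 2.39%. The counts were 23 above and 7 below with normexp (9.32% and 25.3% of all probes), and 22 and 6 with quantile normalization (14.7% and 9.49%). The authors' values gave 15 above and 9 below, against 12.6% and 9.43% of all probes. All 4 TIA arrays were above all 4 GFP and HuR arrays at 5 probes (SF3A1, HNRNPF and the 3 of SRSF11) and below them at 9, against 12.7% and 9.65% of all probes. The 9 were HNRPDL, HNRNPD, HNRNPH3, 2 probes of HNRNPA3, SRSF3, SRSF7, SNRPD1 and SF3B5. Without the first GFP array 8 were above and 25 below, against 19.7% and 15.1% of all probes. With array median scaling 1 was above and 0 below, against 8.37% and 1.85% of all probes, and with quantile normalization 6 and 18, against 13.8% and 8.98%.

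Probes of the same gene could differ. Of 25 genes with several tested probes, 11 had log2 fold changes of both signs for TIA1 against HuR and 10 had a range of over 0.5, and of 26 genes for TIAR, 7 and 8 did. SNRPD3 is among the 7 and the 8 through a probe that was not well above background in the HuR line. Its range is thus not a measured size. Apart from SNRPD3, SNRPE exceeded a range of 1 for TIA1, HNRNPC did for TIAR, and HNRNPA2B1, HNRNPK and SNRPE did for HuR against GFP. For HNRNPA2B1 this came from A_33_P3337318, which read -1.37 on the first GFP array and between -4.66 and -4.03 on the other 7. The HNRNPA3 probes at the same place, with 3 base differences between them, read apart. A_24_P269895 read 1.56 and 2.14 with GFP, 1.75 and 1.68 with HuR, 1.83 and 1.81 with TIA1, and 1.68 and 1.54 with TIAR, and gave 0.11 and -0.10 against HuR. A_33_P3422170 read -1.45 and -1.48 with GFP, -1.80 and -1.90 with HuR, -1.80 and -1.52 with TIA1, and -2.38 and -2.68 with TIAR, and gave 0.19 and -0.68, the latter past the test (adjusted p = 0.032). At the first probe the other lines all overlapped the range of the GFP line, and at the second the TIAR arrays were the lowest. Which RNA each probe of this pair reads is uncertain.

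**Figure D4:**
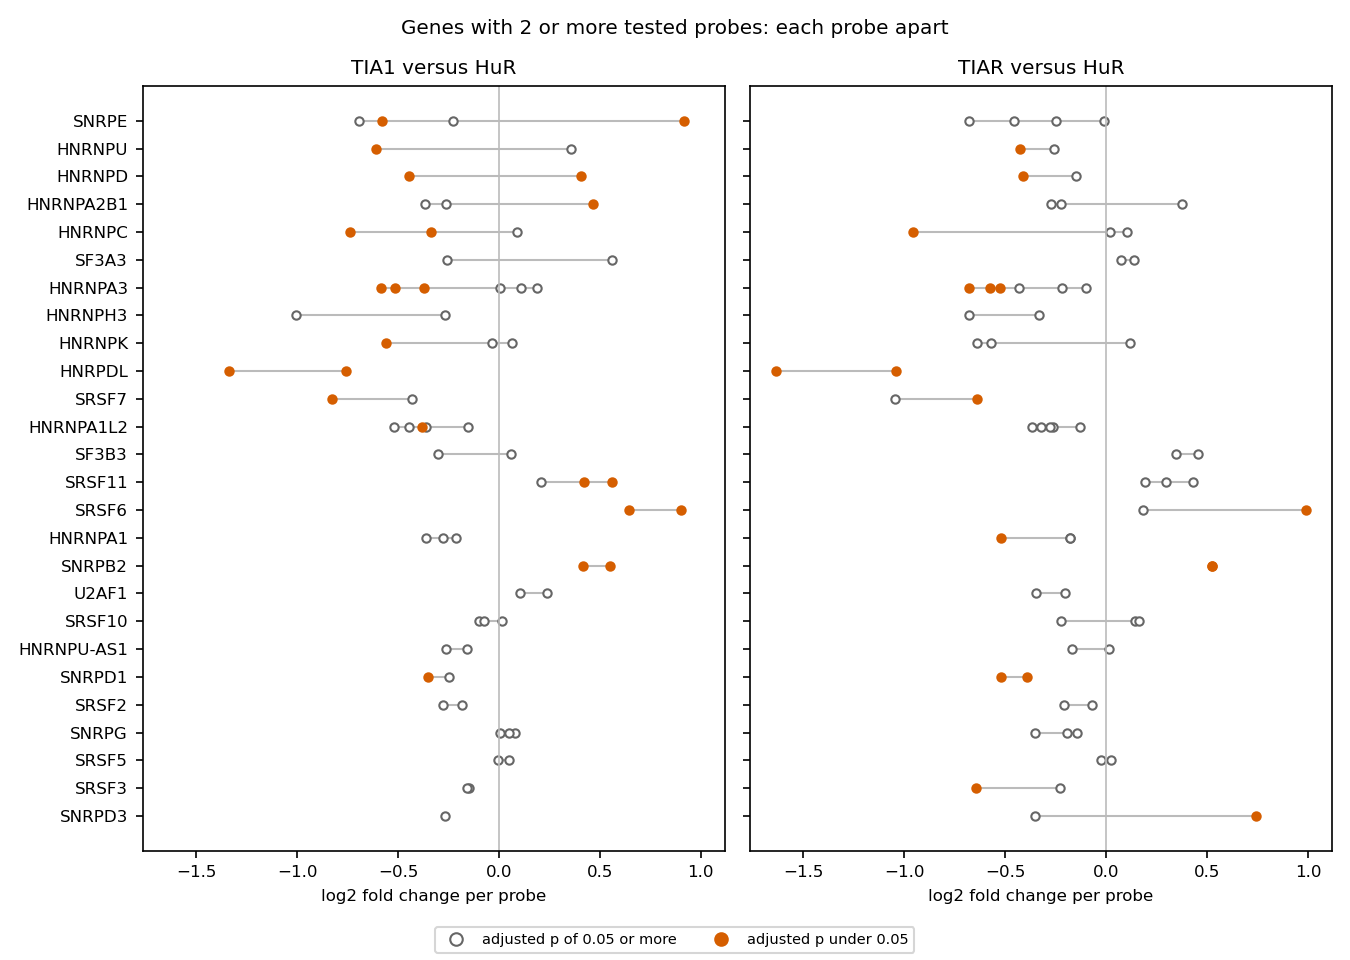
Log2 fold change (x axis) of each tested probe of the 26 genes with 2 or more (y axis), for TIA1 (left) and TIAR (right) against HuR. Each point is a probe, filled where the adjusted p was under 0.05; both HNRPDL probes lie below -0.7 in both panels, while the 4 probes of SNRPE run from -0.69 to 0.92 for TIA1. The SNRPD3 probe at the right was not well above background in the HuR line, so that its value is not a measured size.

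Further spliceosome and splicing regulator genes, a list of 65 of which 64 are on the array, were read at 91 tested probes. Against HuR, 4 were called higher and 2 lower with TIA1, where 8.5% and 4.9% of all probes were. For TIAR 1 was called higher and 2 lower, against 7.06% and 3.01% of all probes. By the adjusted p alone 22 were higher and 14 lower with TIA1, against 24.2% and 17.3% of all probes. For TIAR 12 were higher and 16 lower, against 18.1% and 12.6%. Among those that differed from HuR were the neuronal PTBP2 (1.21 with TIA1) and 1 of the probes of LSM3 of the U6 snRNP (1.18 with TIA1, 0.13 at the other probe). NOVA1, a neuronal splicing regulator, gave -1.69 and -1.35 at its probes with TIA1. Single probes of CELF1 and QKI, regulators of splicing and mRNA decay, gave -1.15 and -1.15 with TIAR. The other CELF1 probe gave -0.06 and the other QKI probes -0.05 and -0.14. Between the TIA lines RBM17, a factor at the acceptor site, was called lower with TIAR (-1.03, adjusted p = 0.034), as were 1.1% of all probes. The median of the list was -0.01 for TIA1 and -0.16 for TIAR against HuR, where that of all probes was 0.08 and 0.05.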

How the data were processed

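RNA of the 4 FT293 lines was hybridized to 8 one-colour arrays (2 per line) on 1 slide. The authors deposited intensity values, the scanner software's processed signals (Feature Extraction 10.7.3.1, design on hg19), background-subtracted and not normalized between arrays, and a table of log2 values, in which the TIAR arrays share a distribution of their own, used as an alternative. The label text names a rat array, while the files hold the human one. The source name of the second TIA1 sample reads GFP-TIA2, and it was taken as TIA1 from its title and its other labels. Here log2 of the processed signal was taken relative to the array's 75th percentile, outlier spots were dropped and spots of a probe averaged. Probes were tested where both arrays of 1 or both lines compared lay well above background, over the whole array with limma 3.58.1 (lmFit and eBayes, R 4.3.3, data.table version 1.17.8, plots with matplotlib 3.10.9) on the 4 arrays compared, with Benjamini-Hochberg adjustment, and the procedure was tested on simulated data. Members, lists and tests were chosen with earlier results of these data known. Named were genes with a called probe, the probe of each family with the largest change against HuR, 13 core factors, genes whose probes differed by over 1 and the genes of the expressed proteins, and other genes only from those past the adjusted p or in a count. Of the 106 probes, 97 matched a RefSeq gene. Coordinates are those of the array design. The precision is limited by the number of arrays. Replicate numbers were not taken as pairs, since the labels tie them to no shared culture and their deviations correlated between -0.09 and 0.18. The alternatives were normexp (offset 50), array median, quantile and authors' values, filters on dim probes, all arrays in one fit, a replicate block, leaving out each array, and the methods' paired t-test. The study names that t-test in its general statistics, while its array calls used limma. The values of 1 gene of the list of further splicing genes are not reported here.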

Additional observations from a re-analysis of the deposited data

How the results depend on the processing

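Probes called past 2-fold numbered 2 for TIA1 against HuR and 3 for TIAR against HuR (13.4% and 10.1% of all probes). With array median scaling they were 5 and 7 (14.4% and 11.4%), and with no filter on dim probes 1 for TIAR (4.76%). The methods' paired t-test gave 0 and 0 after Benjamini-Hochberg (0% of all probes), and 1 and 0 by its unadjusted p. That test takes the replicate numbers as pairs, with 2 arrays per line. It could hardly pass the adjustment over all probes, so its 0 decides nothing. With no fold limit the main fit gave 32 and 27, and 1 for TIAR against TIA1 (41.5%, 30.6% and 3.48% of all probes). Of the probes past the adjusted p (32 and 27), array median scaling gave 51 for TIAR (37.7% of all probes) and no filter 4 and 3 (9.25% and 5.44%). All 8 arrays in one fit gave 10 and 9 (18.6% and 12.3%), and the methods' paired t-test after Benjamini-Hochberg 0 and 0 (0%). With the replicate number as a block 24 and 10 passed the adjusted p (37.1% and 20.4% of all probes). In that fit 3 and 4 were called (13.6% and 10.1%), although the numbers do not pair the samples. Leaving out 1 array in turn gave 2 to 5 and 0 to 7 called probes and 2 to 38 and 0 to 29 past the adjusted p, where the lowest numbers past the adjusted p came without either HuR array. The log2 fold changes of SNRPA1 and HNRPDL A_23_P213153 for TIAR were then -1.14 in both cases, and -1.84 and -1.43, with an adjusted p of 0.087 and 0.095, and 0.057 and 0.074. Against GFP, all 8 arrays in one fit called 1 probe with TIA1, 2 with TIAR and 2 with HuR (9.05%, 5.95% and 3.96% of all probes). The unadjusted p of the methods' paired t-test called 1 with HuR. The 14 probes at which the TIA lines stood apart (22.3% of all probes did) became 1 with array median scaling (10.2%) and 24 with quantile normalization (22.7%). Without 1 array they were 14 to 33 (24.0% to 34.8% of all probes). The 31 of the HuR line (27.1%) became 31 to 47 without 1 array (28.6% to 36.4%). The authors' values gave 15 above and 9 below for the HuR line (12.6% and 9.43%). None of the log2 fold changes that passed the adjusted p changed sign under any alternative. Array median scaling left 8 of the 32 for TIA1 against HuR and 4 of the 27 for TIAR short of the limit they had met. With the authors' values 9 of the 32 and 15 of the 27 fell short. Array median scaling moved the median of all probes to -0.16 and -0.21 for TIA1 and TIAR against HuR and to 0.70, 0.65 and 0.90 for TIA1, TIAR and HuR against GFP. In each of these cases the cause was not tested.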
